A study of Mus musculus with 4 samples.

Results

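Epcam-negative Nos1 cells of the mouse thymus were examined, a class set by UMI counts in single cells (a UMI is a molecular tag that counts 1 captured RNA molecule). The thymic stroma had been depleted of CD45-positive blood cells, sorted and profiled by droplet sequencing of RNA 3′ ends in 4 libraries. WT 1 and WT 2 came from wild-type C57BL/6 mice, and Z/Z 1 and Z/Z 2 from C57BL/6 mice homozygous for a LacZ allele of Foxn1, which lowers the activity of that gene. Every group was untreated and 6 months old, and thymi of several mice were pooled for each preparation. The libraries, not the mice, were therefore the replicates, and no p-value covers the spread between mice. Those for shares compared whole libraries. Those for genes measured only how far differences between classes varied from library to library. That spread was estimated over all classes of the fit together, not for the members alone. The allele is carried by every cell of the Z/Z mice, so effects within and outside the epithelium cannot be told apart.

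A cell was a member if it held at least 1 UMI of Pax1 or Pax9, at least 2 UMIs in sum of Nos1, Slc26a7 and Ano1, and 0 UMIs each of Epcam, Pdgfra, Pecam1, Ptprc, Sox10 and S100b. These criteria were applied to cells with more than 1000 detected genes and less than 20% mitochondrial UMIs. They selected 518 of 10245 retained cells, of which 370 came from Z/Z 1, 143 from Z/Z 2, 5 from WT 1 and 0 from WT 2. Because the cells were chosen by the UMI counts of these genes, their levels are given as a description and were not tested.

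The thymic epithelium arises from the third pharyngeal pouch under transcription factors that include Pax1, Pax9, Eya1, Hoxa3 and Foxn1. Foxn1 drives the program by which this epithelium attracts precursors, presents antigen on MHC molecules and selects T cells, and the program declines as the thymus involutes. Epithelial cells can also lose adhesion genes and gain mesenchymal ones under repressors such as Zeb1 and Zeb2, a change known as epithelial-to-mesenchymal transition. Nos1 encodes the neuronal nitric oxide synthase, and nitric oxide acts largely through soluble guanylate cyclase, which makes cGMP.

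The depth of the members was modest. Their median was 6199.5 UMIs per cell in Z/Z 1, 5905 in Z/Z 2 and 6421 in WT 1, and other Epcam-positive thymic epithelial cells (TECs) of Z/Z 1 and Z/Z 2 had medians of 8498 and 9125. The summed members held 2472932 UMIs in Z/Z 1, 959622 in Z/Z 2 and 44000 in WT 1. The libraries held between 8468086 and 50705511 UMIs in called cells. Between 39.8% and 83.4% of the called cells were retained, the lower shares in the WT libraries. WT 1 and WT 2 shared 202 cell barcodes and Z/Z 1 and Z/Z 2 shared 249. Pairs of a WT and a Z/Z library shared between 0 and 6. The cause of the sharing within a genotype was not tested, nor whether it makes the libraries of a group less independent. Among the members, 2 carried a barcode also called in another library, and none was a member in both. Foxn1, the altered gene, stood at 98.4 and 87.1 CPM (UMIs per 1000000 UMIs of the class) in the other Epcam-positive TECs of WT 1 and WT 2 and at 67.0 and 91.1 CPM in those of Z/Z 1 and Z/Z 2. These levels overlapped, and where the 3′ tags lie relative to the LacZ insertion was not examined here, so they do not check the genotype labels.

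The members were most numerous in the Z/Z libraries. They made up 0.330% of retained cells in WT 1 (95% Clopper-Pearson interval 0.107 to 0.767%), against 7.98% in Z/Z 1, whose interval ran from 7.22 to 8.80%, and 3.95% for Z/Z 2 with 3.34 to 4.64%. WT 2 held 0 of 474 cells, which allows a share of up to 0.633% as 3 counts of the total, or 0.775% as the upper Clopper-Pearson bound. Both Z/Z shares lay above both WT shares, and the mean difference was 5.80 percentage points. The exact permutation test over libraries, two-sided, gave p = 0.333, the smallest value that 2 libraries against 2 allow. Among gated epithelial cells (members, Epcam-positive Nos1 cells and other Epcam-positive TECs) the members were 5 of 185 in WT 1 (2.70%), 0 of 35 in WT 2 (up to 8.57% as 3 counts, 10.0% as the upper bound), 370 of 1105 in Z/Z 1 (33.5%) and 143 of 595 in Z/Z 2 (24.0%). WT and Z/Z libraries were again apart, with a mean difference of 27.4 percentage points and exact permutation p = 0.333. The intervals and limits cover counting error only. Fewer cells of other kinds in the Z/Z thymus and more members cannot be told apart from shares.

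**Figure D1:**
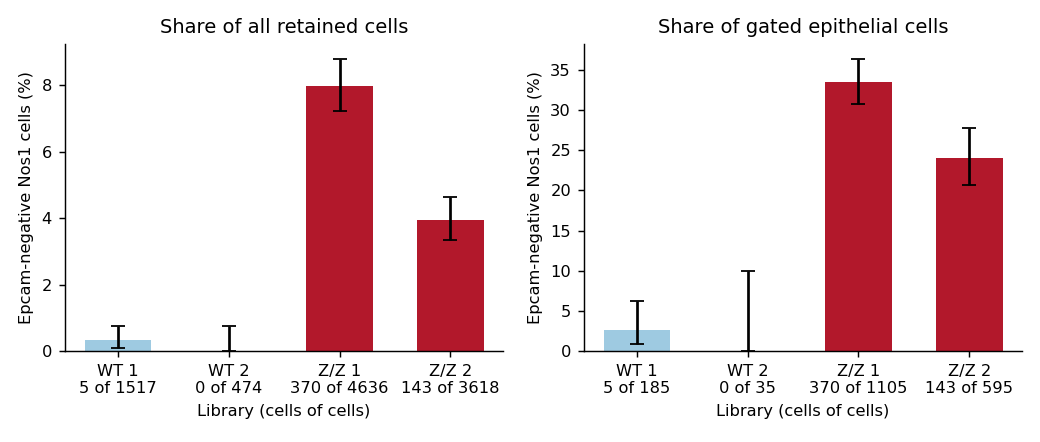
Share of Epcam-negative Nos1 cells (bars, percent) in each of the 4 libraries, as a share of all retained cells (left) and of gated epithelial cells (right), with 95% Clopper-Pearson intervals. Both Z/Z libraries lie above both WT libraries, at 7.98% and 3.95% against 0.330% and 0% of retained cells.

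The genes of the criteria were unevenly shared among the members. Nos1 was detected in 93.0% and 90.9% of the members of Z/Z 1 and Z/Z 2, and Ano1, a calcium-activated chloride channel, in 79.2% and 54.5%. Slc26a7, an anion exchanger, was the least frequent, at 29.2% and 30.1%. Pax1 was detected in 75.4% and 68.5% of members and Pax9 in 82.2% and 82.5%. At the edge of the rule, 42 Z/Z members held exactly 2 UMIs of Nos1, Slc26a7 and Ano1, and 63 Z/Z cells that met the other criteria held 1. Another 41 Z/Z cells were left out for a single Epcam UMI and 57 for 2 or more. Of the 611 Z/Z cells that met every criterion other than Epcam, 84.0% lacked it.

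The Epcam-negative Nos1 cells kept several pouch transcription factors at the level of other TECs and had almost no Foxn1. UMI sums per library and class were compared by edgeR's quasi-likelihood test in Z/Z 1 and Z/Z 2, the libraries with at least 10 cells in each class. Of 13802 genes tested against the 1089 other Epcam-positive TECs of these libraries, 30.0% passed an adjusted p of 0.05, with 16.0% higher and 14.0% lower in the members. Against 949 Pdgfra-positive fibroblasts 29.7% passed (13.5% higher, 16.2% lower), and against 98 Epcam-positive Nos1 cells 12.5% passed (5.73% higher, 6.79% lower). The 3 comparisons share the members and are not independent of each other. Levels below are CPM of the class's summed UMIs, given for Z/Z 1 and then Z/Z 2, and differences are fitted log2 values, members minus the other class, on TMM-scaled libraries. With library sizes alone the median of all genes lay at -0.32 against TECs and at -0.17 against Epcam-positive Nos1 cells (-0.03 and 0.03 with TMM), so that 33.0% in place of 53.4% of the calls against TECs were higher in the members, and 28.4% in place of 45.8% against Epcam-positive Nos1 cells.

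Of the 10 pouch factors, 2 rose and 3 fell against other TECs, and 4 rose and 0 fell against fibroblasts. Isl1, a homeobox factor of pharyngeal tissue at chr13:116298281-116309689, minus strand, GRCm38, reached 289 and 302 CPM in the members, 206 and 159.7 in other TECs and 1.76 and 0.304 in fibroblasts. It was higher than in TECs by 0.98 ± 0.19 (SE), edgeR adjusted p = 0.00393 and than in fibroblasts by 7.78 ± 0.31 (SE), edgeR adjusted p = 4.11e-07. Without the members of Z/Z 2 the call against TECs was lost. Eya1, a transcriptional coactivator of pouch development, stood at 444 and 266 CPM in the members, 462 and 296 in TECs and 10.7 and 10.0 in fibroblasts. It did not pass the test against TECs (0.19 ± 0.17 (SE), edgeR adjusted p = 0.465) and was higher than in fibroblasts by 5.02 ± 0.22 (SE), edgeR adjusted p = 6.82e-07. Hoxa3, the homeobox factor that patterns the third pouch, was higher than in TECs by 0.81 ± 0.24 (SE), edgeR adjusted p = 0.0303, a call lost without the members of either library and with library sizes alone.

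Foxn1 (chr11:78357577-78386558, minus strand, GRCm38) was at 0.447 and 0 CPM in the members, from 1 UMI in 513 cells, and at 67.0 and 91.1 CPM in other TECs. The summed level was 194-fold lower, with a counting interval of 34.8 to 7680. Trp63, the stem-cell factor of stratified epithelia, fell as well, from 212 and 126 CPM in TECs to 3.13 and 2.31 (-5.62 ± 0.34 (SE), edgeR adjusted p = 3.46e-06). Both genes were as low in the members as in fibroblasts, where Foxn1 stood at 0.294 and 0 and Trp63 at 2.06 and 2.43 CPM. Six4 was the third gene that fell (-1.73 ± 0.42 (SE), edgeR adjusted p = 0.012), a call lost without the members of Z/Z 2.

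Epithelial adhesion, keratin and splicing genes were low as a group. Of 24 epithelial identity genes, 23 fell and 0 rose against other TECs, with a median log2 difference of -4.68 beside -0.03 for all genes tested (-4.44 with genes at 0 or few UMIs set to their bound). The keratin Krt18 stood at 38.4 and 68.1 CPM in the members and 2539 and 3608 in TECs (-5.62 ± 0.21 (SE), edgeR adjusted p = 4.5e-07). Cdh1, which encodes E-cadherin, stood at 20.1 and 28.9 against 809 and 799 CPM (-4.81 ± 0.20 (SE), edgeR adjusted p = 6.89e-07). Esrp1, an epithelial splicing regulator, and Grhl2, a factor that maintains epithelial junctions, fell by 4.62 and 5.01 on the log2 scale. Since the members were selected for 0 Epcam UMIs, genes that vary with Epcam among cells are not independent of the selection.

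The epithelial genes were not uniformly at the level of fibroblasts. Dsp, a desmosomal plaque protein, stood at 136 and 151 CPM in the members, 491 and 551 in TECs and 5.14 and 4.56 in fibroblasts. It was lower than in TECs (-1.57 ± 0.17 (SE), edgeR adjusted p = 0.000126) and higher than in fibroblasts (4.75 ± 0.23 (SE), edgeR adjusted p = 8.69e-07). Ocln, the tight junction protein occludin, lay between the classes in the same way, at 33.9 and 18.5 CPM in the members against 64.1 and 83.2 and 0.734 and 0.304, though its call against TECs was lost without the members of Z/Z 2. Tjp1, a scaffold of tight junctions, was the gene of the list that did not pass against TECs (0.36 ± 0.15 (SE), edgeR adjusted p = 0.108). Against fibroblasts 9 of the 24 rose and 0 fell. Krt8 and Krt18, at 34.4 and 46.2 and 38.4 and 68.1 CPM in the members, stood at 14.2 and 23.4 and 23.6 and 34.0 CPM in fibroblasts and 18.3 and 32.5 and 31.7 and 48.6 CPM in endothelial cells, classes that should lack them. Against fibroblasts Krt8 was higher by 1.05 ± 0.19 (SE), edgeR adjusted p = 0.003, a call lost without the members of Z/Z 1, and Krt18 by 0.75 ± 0.20 (SE), edgeR adjusted p = 0.0178, a call lost without those of either library.

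The label of thymic epithelium was thus met by the pouch factors and by Dsp and Ocln, while the levels of Cdh1 and Foxn1 were far below those of other TECs. Cdh1, at 4.40 and 6.07 CPM in fibroblasts, was higher in the members than there (2.12 ± 0.25 (SE), edgeR adjusted p = 0.000187). Krt7, a simple epithelial keratin, was also higher in the members than in fibroblasts (3.50 ± 1.02 (SE), edgeR adjusted p = 0.029). A further list held 7 genes that the study used to describe TECs, mesenchyme or its age-associated classes. Podoplanin (Pdpn) and vimentin (Vim) rose against other TECs, to 790.1 and 706 from 363 and 307 CPM and to 471 and 781 from 68.1 and 105 CPM, and H2-Aa, Plet1, Cldn3, Krt5 and Krt8 fell. The list was not independent evidence of its direction.

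Mesenchymal genes moved the other way. Of 22 genes 14 rose and 2 fell against other TECs, with a median log2 difference of 2.11, and 2 rose and 16 fell against fibroblasts, with a median of -1.82. Among all genes 16.0% were higher and 14.0% lower against TECs, and 13.5% and 16.2% against fibroblasts. The gates required 0 Pdgfra UMIs in the members and at least 2 in fibroblasts. Genes that vary with Pdgfra among cells are therefore not independent of the selection. Zeb2 (chr2:44983632-45117395, minus strand, GRCm38) reached 1346 and 1459 CPM in the members against 31.8 and 21.5 in TECs (5.97 ± 0.29 (SE), edgeR adjusted p = 1.15e-06). Its level in fibroblasts was 1174 and 1221 CPM, a difference of 0.14 ± 0.23 (SE), edgeR adjusted p = 0.703. Zeb1 was higher than in TECs by 1.51 ± 0.16 (SE), edgeR adjusted p = 0.000108 and lower than in fibroblasts by -2.91 ± 0.17 (SE), edgeR adjusted p = 2.08e-06. Thus Zeb2 and Zeb1 stood in a different ratio in the members and in fibroblasts.

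Col3a1 and Dcn lay between the 2 classes. Col3a1, a fibrillar collagen, stood at 247 and 450.2 CPM in the members, 12.9 and 6.23 in TECs and 900.2 and 1087 in fibroblasts. Dcn, the matrix proteoglycan decorin, stood at 400.2 and 546 CPM against 119.7 and 113 in TECs and 13157 and 13301 in fibroblasts (-4.92 ± 0.29 (SE), edgeR adjusted p = 2.14e-06 against the last). Fn1, the mesenchymal matrix protein fibronectin, went against the list and was at 8.49 and 4.62 CPM in the members, below both TECs at 61.2 and 35.7 and fibroblasts at 489 and 541. Its call against TECs was lost without the members of Z/Z 1. The repressor Snai2 also fell against TECs (-2.05 ± 0.36 (SE), edgeR adjusted p = 0.00216). Prrx1, a mesenchymal homeobox factor, reached 163 and 169 CPM, against 3.30 and 1.5 in TECs and 384 and 382 in fibroblasts.

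Tagln and Myh11 exceeded both classes. Tagln, an actin-binding protein of smooth muscle, stood at 1084 and 1123 CPM in the members, 75.9 and 67.7 in TECs and 14.8 and 13.1 in fibroblasts, with differences of 4.23 ± 0.32 (SE), edgeR adjusted p = 1.18e-05 and 6.25 ± 0.36 (SE), edgeR adjusted p = 2.13e-06. Myh11, the smooth muscle myosin, stood at 268 and 216, 61.8 and 84.9 and 20.1 and 10.3 CPM. The 7 mural cell markers summed to 916 and 979 CPM in the members, 210 and 199 in TECs and 604 and 443 in fibroblasts. Mural cells (pericytes and smooth muscle) were not gated as a class, so the members were not compared with them. Against TECs 6 rose and 0 fell, with a median difference of 2.43. Against fibroblasts Rgs5, Notch3 and Myh11 rose and Kcnj8, Abcc9 and Vtn fell, with a median of 0.13. Kcnj8, a defining channel of pericytes, was at 3.57 and 0 CPM in the members. In cells thinned to 3000 UMIs, Tagln or Acta2 was detected in 65.2% and 66.7% of the members. Ccl19 was seen in 85.9% and 80.9% of those with Tagln or Acta2 and in 81.6% and 66.0% of those without. By gene, Tagln was seen in 64.1% and 66.0% of thinned members, 7.43% and 9.82% of TECs, 1.77% and 1.57% of fibroblasts and 7.04% and 8.68% of endothelial cells. Ccl19 was seen in 16.7% and 18.1% of thinned TECs, 31.1% and 16.9% of fibroblasts and 1.45% and 1.05% of endothelial cells. Free RNA held Tagln at 384 and 352 CPM and Ccl19 at 339 and 279 CPM in Z/Z 1 and Z/Z 2.

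Markers of other cells were present in part, and their part in the results was not tested. The 8 fibroblast markers summed to 955 and 1386 CPM in the members, 149 and 157 in TECs and 16915 and 17698 in fibroblasts. The 7 endothelial markers summed to 39.3 and 38.1 CPM, against 6587 and 6660 in endothelial cells. The 7 thymocyte markers summed to 12.1 and 134 CPM, and 69.0 CPM in the TECs of Z/Z 2. The thyroid factors Pax8, Nkx2-1 and Foxe1 and the parathyroid factor Gcm2 were at 0 UMIs in the members of both libraries, and the 6 thyroid markers summed to 25.9 and 23.1 CPM. The myeloid markers summed to 13.8 and 2.31 CPM, the ionocyte markers to 0.893 and 4.62 CPM, the mesothelial markers to 15.6 and 5.77 CPM. The tuft list, at 612 and 793 CPM, was nearly all Dclk1 (592 and 762 CPM), and the glial list, at 117 and 111 CPM, was mostly Ngfr and Ncam1.

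**Figure D2:**
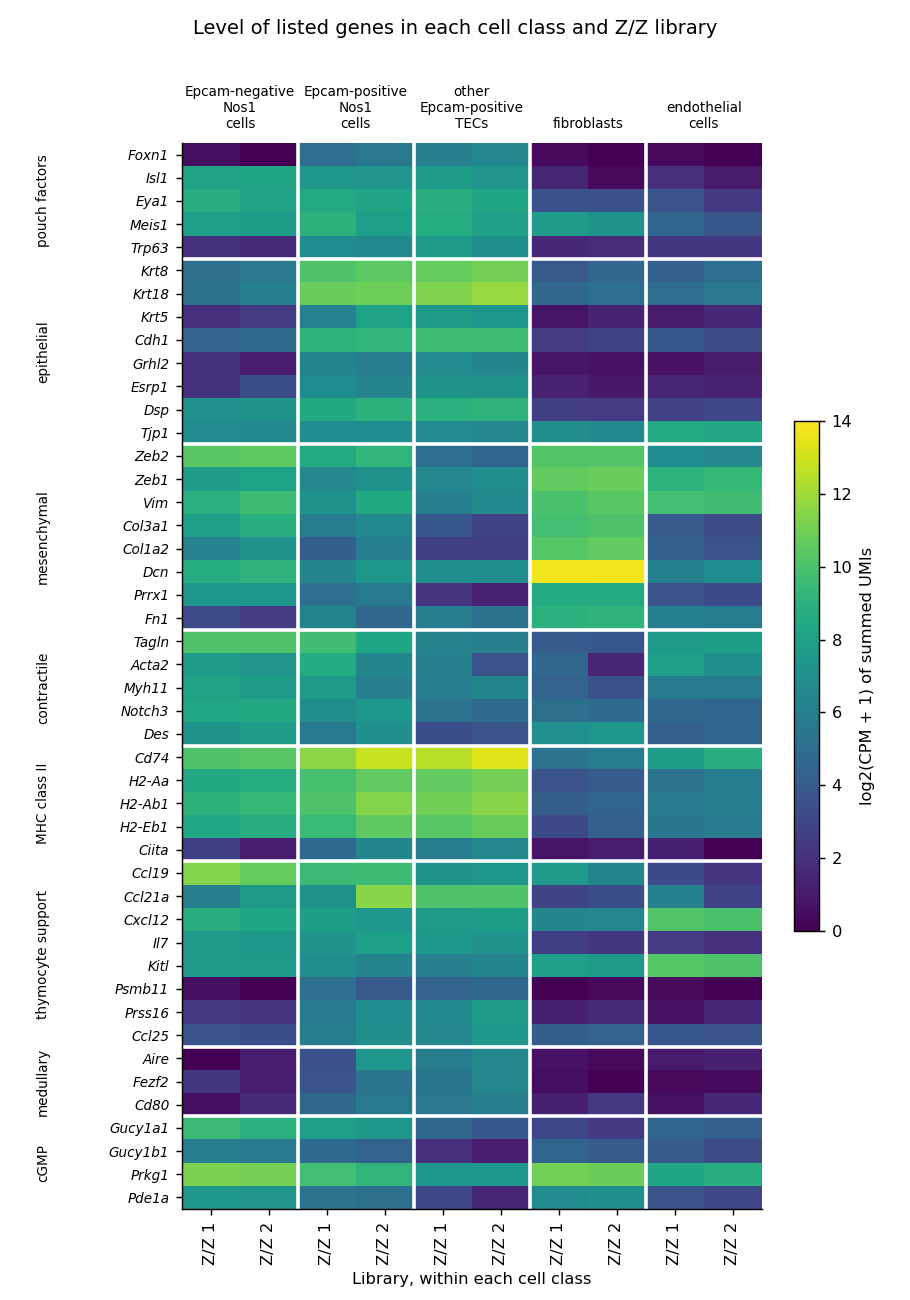
Levels as log2(CPM + 1) of summed UMIs (colour) for listed genes (rows) in 5 cell classes, each in Z/Z 1 and Z/Z 2 (columns). The Epcam-negative Nos1 cells lie near TECs in Eya1, near fibroblasts in Zeb2 and Prkg1, and above both in Ccl19, Tagln and Gucy1a1.

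MHC class II genes lay between TECs and the mesenchyme. All 8 genes of the list fell against other TECs, with a median log2 difference of -1.77, and 5 rose and 0 fell against fibroblasts, with a median of 4.54. Cd74, the invariant chain, stood at 1079.6 and 1381 CPM in the members, 5858 and 10238 in TECs and 38.8 and 59.5 in fibroblasts. H2-Aa, a class II alpha chain, stood at 359 and 409, 1582 and 2144 and 11.2 and 15.8 CPM. Free RNA, read in droplets with at most 100 UMIs, held H2-Aa at 512 and 710 CPM, above the members, while endothelial cells of the same libraries held 38.8 and 59.0 CPM. Ciita, the class II transactivator, was at 5.36 and 1.15 CPM in the members and 59.2 and 89.8 in TECs (-3.73 ± 0.49 (SE), edgeR adjusted p = 0.000366).

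MHC class II and Zeb2 UMIs were detected together in most members. Cells were thinned to 3000 UMIs for this count, which left out 11 and 2 members, 28 and 28 other TECs, 8 and 1 fibroblasts and 48 and 62 endothelial cells. Of the thinned cells, 74.1% of 359 members of Z/Z 1 (69.2 to 78.6%) and 80.9% of 141 of Z/Z 2 (73.4 to 87.0%) held a UMI of both. The shares were 3.10% and 3.62% in other TECs, 16.4% and 22.9% in fibroblasts and 4.55% and 5.79% in endothelial cells. Epcam-positive Nos1 cells, whose gate is nearest to that of the members, were left out of this count. In them the 8 class II genes of the list summed to 6095 and 13253 CPM, against 2881 and 3455 in the members. Whether joint detection is particular to the members was therefore not tested. Class II alone was seen in 18.5% and 26.6% of fibroblasts and 31.5% and 40.0% of endothelial cells, the background of classes that should lack it, and in 82.7% and 86.5% of the members. Zeb2 alone was seen in 90.0% and 92.9% of thinned members and 96.2% and 97.9% of members at full depth. Within the members Zeb2 was detected in 89.6% and 93.4% of those with class II and in 91.9% and 89.5% of the 62 and 19 without. With each so frequent, the share with both follows largely from the shares of each. Free RNA can also add class II UMIs, so the count cannot show whether the members hold subgroups.

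**Figure D3:**
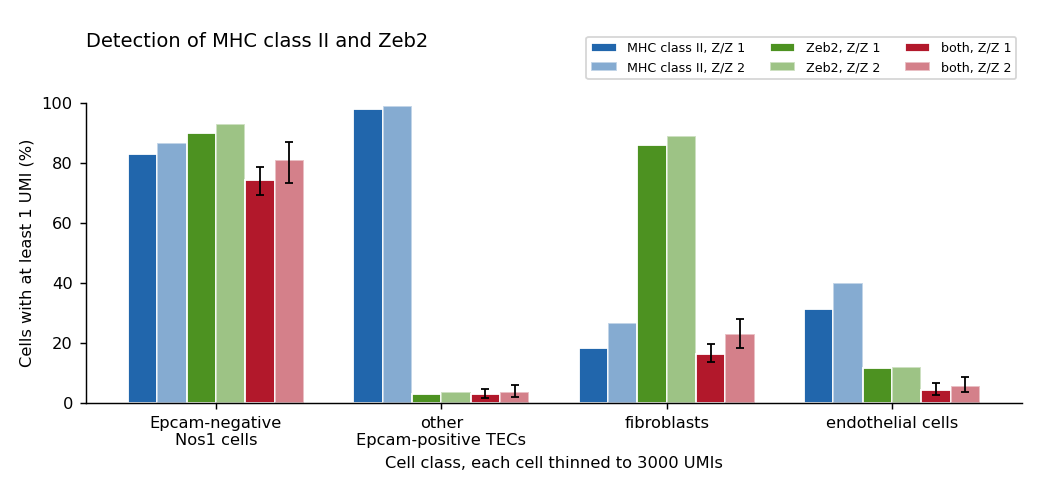
Percent of cells with at least 1 UMI of MHC class II genes, of Zeb2 and of both, in 4 cell classes of Z/Z 1 (dark) and Z/Z 2 (light), each cell thinned to 3000 UMIs; error bars are 95% Clopper-Pearson intervals of the share with both. The members hold both in 74.1% and 80.9% of cells, and no other class shown exceeds 22.9%. Epcam-positive Nos1 cells were not counted and are not shown.

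Genes that serve thymocytes changed in both directions. Against other TECs 4 of the 13 thymopoietic and cortical genes rose, 5 fell and 4 did not pass. Across all genes tested 16.0% rose and 14.0% fell. The chemokine Ccl19 (chr4:42754525-42756577, minus strand, GRCm38) reached 2726 and 1658 CPM in the members, 747 and 788 in Epcam-positive Nos1 cells, 146 and 163 in TECs and 183 and 84.1 in fibroblasts (4.05 ± 0.32 (SE), edgeR adjusted p = 1.72e-05 against TECs). Near-identical copies of this gene exist in the mouse genome, so its count is uncertain. Cxcl12, a chemokine that attracts precursors, stood at 435 and 313 CPM against 183 and 219 in TECs (1.18 ± 0.20 (SE), edgeR adjusted p = 0.00211), a call lost without the members of Z/Z 1. Kitl, the ligand of Kit, was higher than in TECs by 1.55 ± 0.18 (SE), edgeR adjusted p = 0.000184, and Enpep, an aminopeptidase of cortical epithelium, by 3.10 ± 0.28 (SE), edgeR adjusted p = 3.81e-05.

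The cytokine Il7 stood at 180.5 and 177 CPM in the members and 173 and 148 in TECs, a difference of 0.43 ± 0.22 (SE), edgeR adjusted p = 0.172, and at 5.14 and 3.64 CPM in fibroblasts (5.19 ± 0.30 (SE), edgeR adjusted p = 2.08e-06). Psmb11, the thymoproteasome subunit, held 1 UMI in the members and stood at 20.9 and 25.1 CPM in TECs, 57.3-fold higher there with a counting interval of 10.2 to 2273. Prss16, a protease of cortical epithelium, stood at 4.02 and 3.46 against 104 and 209.8 CPM, and Ccl25, a chemokine for precursors, at 12.1 and 9.23 against 89.0 and 168 CPM. Ccl21a, another gene with near-identical copies, stood at 67.4 and 194 against 1089 and 1144 CPM, and its call was lost without the members of either library. Of the 8 medullary genes 5 fell and 0 rose, and Aire, the regulator of tissue antigens, held 1 UMI in the members against 59.8 and 96.1 CPM in TECs.

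**Figure D4:**
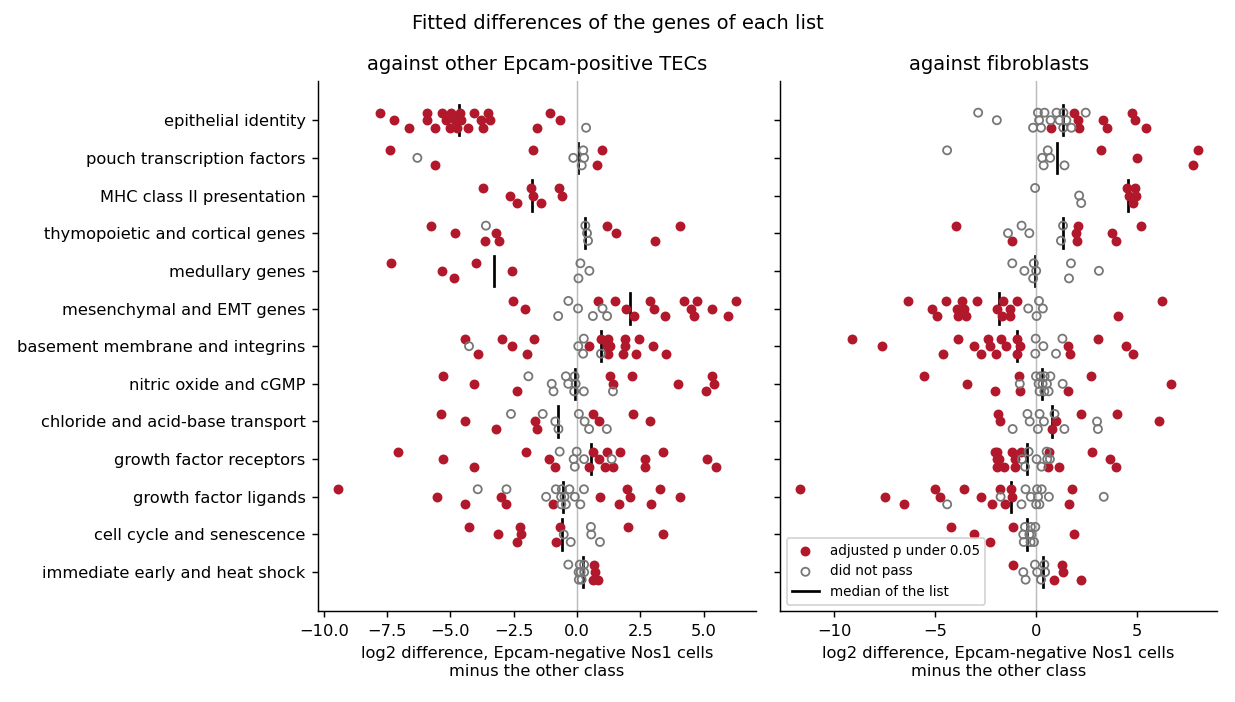
Fitted log2 differences of the genes of 13 lists (points), Epcam-negative Nos1 cells minus other Epcam-positive TECs (left) and minus fibroblasts (right); filled points passed an adjusted p of 0.05 and black bars are list medians. Against TECs the epithelial list has a median of -4.68 and the mesenchymal list of 2.11.

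The intracellular receptor of nitric oxide and its cGMP-dependent kinase were higher in the members than in other TECs. Of 20 nitric oxide and cGMP genes tested, Nos1 left out, 7 rose and 3 fell against other TECs, and the median was -0.07. Over all genes tested 16.0% were higher and 14.0% lower. The levels of these genes in mural cells, which were not gated, are not known here. Gucy1a1 (chr3:82092427-82145789, minus strand, GRCm38) encodes the alpha subunit of soluble guanylate cyclase and stood at 749.9 and 492 CPM in the members, 24.2 and 13.5 in TECs, 7.19 and 4.25 in fibroblasts and 23.1 and 18.1 in endothelial cells. It was higher than in TECs by 5.32 ± 0.18 (SE), edgeR adjusted p = 4.5e-07 and than in fibroblasts by 6.66 ± 0.20 (SE), edgeR adjusted p = 1.45e-07. Its partner subunit Gucy1b1 stood at 64.8 and 53.1 CPM against 2.87 and 1.07 in TECs (5.11 ± 0.29 (SE), edgeR adjusted p = 2.95e-06). Prkg1, the cGMP-dependent kinase, stood at 2398 and 2132 CPM against 165 and 175 in TECs and 2070.5 and 1852 in fibroblasts. Pde1a, a phosphodiesterase that degrades cyclic nucleotides, stood at 176 and 156 against 7.03 and 1.72 CPM (5.43 ± 0.37 (SE), edgeR adjusted p = 7.12e-06). Arg2, an arginase that competes for the substrate of nitric oxide synthases, fell with 2 UMIs in the members, 43.9-fold lower than in TECs with an interval of 12.1 to 364.

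Ion transport genes changed in both directions. Of 17 chloride and acid-base genes tested, Ano1 and Slc26a7 left out, 4 rose and 5 fell against other TECs. The shares over all genes tested were 16.0% higher and 14.0% lower. Ano6, a calcium-activated channel and lipid scramblase, stood at 1139 and 1002 CPM against 182 and 168 in TECs (2.89 ± 0.17 (SE), edgeR adjusted p = 3.46e-06). Atp1b1, a sodium pump subunit, stood at 631 and 574 against 176 and 141 CPM and at 5.58 and 12.8 CPM in fibroblasts. Cftr, the chloride channel mutated in cystic fibrosis, held 2 UMIs in the members against 39.7 and 23.9 CPM in TECs, 42.3-fold lower with an interval of 11.6 to 350.4.

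Growth factor receptors and ligands changed in both directions. Of 24 receptors tested 12 rose and 6 fell against other TECs (median 0.54), and of 26 ligands 7 rose and 6 fell (median -0.55). The difference between the receptor and ligand counts was not tested. All genes tested gave 16.0% higher and 14.0% lower. Nrp1, a coreceptor for semaphorins and VEGF, stood at 302 and 308 CPM against 6.60 and 10.3 in TECs (5.48 ± 0.23 (SE), edgeR adjusted p = 6.74e-07). Ptprz1, a receptor for pleiotrophin and midkine, stood at 0.447 and 3.46 CPM against 229 and 212 (-7.09 ± 0.47 (SE), edgeR adjusted p = 6.19e-06), and Sdc4, a syndecan that binds both ligands, at 1022 and 854 against 518 and 538. The ligand Ptn, pleiotrophin, stood at 537 and 672 CPM in the members, 73.1 and 78.7 in TECs and 1501 and 1175 in fibroblasts (3.26 ± 0.20 (SE), edgeR adjusted p = 4.02e-06 against TECs). Mdk, midkine, stood at 266 and 291 against 435 and 488 CPM, a difference of -0.44 ± 0.20 (SE), edgeR adjusted p = 0.13. Igf1 reached 393 and 344 CPM against 55.2 and 61.9 in TECs and 312 and 265 in fibroblasts. The epithelial growth factors Fgf7 and Fgf10 were low in the members, Fgf7 at 0 UMIs and Fgf10 at 1.34 and 3.46 CPM against 322 and 409 in fibroblasts.

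**Figure D5:**
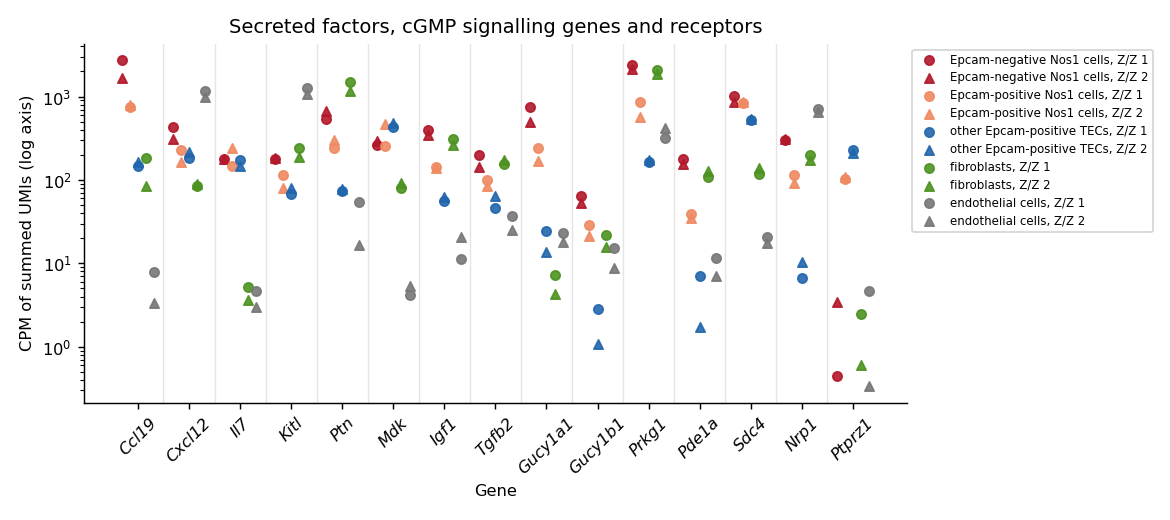
CPM of summed UMIs (log axis) of secreted factors, cGMP signalling genes and receptors in 5 cell classes; circles are Z/Z 1 and triangles Z/Z 2, and values of 0 are not drawn. Ccl19 and Gucy1a1 are higher in both libraries of Epcam-negative Nos1 cells than in every other class shown. Mural cells were not gated and are not shown.

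Laminins and type IV collagens changed in part. Of 24 basement membrane and integrin genes tested 13 rose and 6 fell against other TECs, with a median of 0.95. Among all genes tested 16.0% rose and 14.0% fell. Nid1, a basement membrane linker, rose from 4.88 and 3.22 to 32.6 and 51.9 CPM (3.53 ± 0.28 (SE), edgeR adjusted p = 1.67e-05). The genes that fell included Itga6, an integrin that binds laminins, at 57.6 and 67.0 against 242 and 255 CPM. Of 14 cell cycle and senescence genes 2 rose and 7 fell, and the proliferation gene Top2a stood at 2.23 and 4.62 against 34.4 and 30.9 CPM. Of 12 genes that tissue digestion induces 4 rose and 0 fell, and Fos stood at 3396 and 2966 CPM against 3776 and 2662 in TECs.

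The genes with the largest fitted differences from other TECs were taken by a rule of size, direction and level. Slc44a5, a choline transporter-like protein, stood at 66.1 and 54.3 CPM in the members, 0.287 and 0.430 in TECs and 0.587 and 1.52 in fibroblasts. Prok2, the secreted prokineticin, stood at 76.8 and 86.6 CPM, 0.717 and 1.72 in TECs and 0.294 and 0 in fibroblasts, and was thus low in both other classes. Only 13.0% and 16.8% of members held a Prok2 UMI at full depth. Alkal2, a ligand of the ALK receptor, stood at 133 and 111 CPM against 0.574 and 1.07 in TECs and 70.3 and 106 in fibroblasts. Pde3a, a phosphodiesterase inhibited by cGMP, stood at 379.7 and 360.2 against 3.15 and 3.01 CPM. The others were Olfml2b, Tmem100, Medag, Sod3, Col6a3, Apod, Prrx1 and Calhm5. At the low end, Fermt1, Calcb, Cyp2a5, Alox12e, Utf1 and H2-Oa had 0 UMIs in the members, which placed them at least 78.2, 66.2, 55.9, 43.9, 45.4 and 43.2-fold lower than in TECs. In the same order, 38.1, 4.01, 3.26, 7.42, 4.45 and 13.1% of other TECs of Z/Z 1 held them at full depth. In Z/Z 2 the shares were 42.4, 7.71, 5.54, 11.1, 8.92 and 24.6%, so each fold rests on a minority of the TECs. Chga and Sprr1a held 3 and 2 UMIs in the members. Chga, a protein of endocrine granules, was seen in 1.78% and 4.82% of other TECs at full depth, and other TECs also held parathyroid markers at 465 and 1658 CPM in sum, against 8.49 and 34.6 in the members. With cells that held Pth or Gcm2 left out of the TECs, an alternative added after the data were seen, 4132 genes were called and Chga did not pass the filter on low counts.

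Against fibroblasts the genes furthest above included Trim9, Prok2 and Reep1, and those furthest below were Fgf7, Sele, Car8 and Srpx2, each at 0 UMIs in the members. Trim9, a neuronal ubiquitin ligase, stood at 137 and 167 CPM against 0.294 and 0.304 in fibroblasts and 32.1 and 15.0 in TECs. Reep1, a shaper of the endoplasmic reticulum, stood at 68.8 and 63.5 CPM against 0.147 and 0.304 and 1.15 and 1.93.

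The Epcam-positive Nos1 cells, whose gate differs from that of the members by the Epcam criterion alone, were intermediate for several genes. They were also deeper, with medians of 10629 and 10841 UMIs per cell against 6199.5 and 5905 in the members. The deepest cell held 180815 of their 1011264 UMIs in Z/Z 1 and 100446 of 648509 in Z/Z 2. The part of depth and of single cells in these levels was not tested. Zeb2 stood at 376 and 575 CPM in the Epcam-positive Nos1 cells, below the members (1.76 ± 0.24 (SE), edgeR adjusted p = 0.00192), and Gucy1a1 at 239 and 169 (1.79 ± 0.16 (SE), edgeR adjusted p = 0.000193). Krt18 stood at 1739 and 1927 CPM, above the members (-4.99 ± 0.20 (SE), edgeR adjusted p = 5.13e-06), and Foxn1 at 32.0 and 47.6 CPM. Of the 24 epithelial genes 20 fell and 0 rose in the members against them, and of the 22 mesenchymal genes 12 rose and 3 fell. The 4 genes furthest above them were Spp1, Cxcl13, Arpp21 and Tmc3, and the 4 furthest below were Ly6d, Serpinb2, Obp2a and Calcb, each of these at 0 UMIs in the members. At full depth Spp1, Cxcl13, Arpp21 and Tmc3 were seen in 2.70, 7.84, 7.84 and 20.3% of the members of Z/Z 1. In Z/Z 2 they were seen in 4.20, 6.99, 34.3 and 18.9%. Arpp21 was also seen in 23.4% of other TECs, 19.4% of fibroblasts and 22.4% of endothelial cells of Z/Z 2. Free RNA held it at 62.5 and 301.5 CPM, above the members at 32.6 and 90.0, and the part of free RNA was not tested. Among the Epcam-positive Nos1 cells 16.4% and 10.8% were in the top 3.9% of doublet scores, against 1.35% and 0.699% of the members, and the part of doublets in their levels was not tested. Removing cells whose barcode was shared between libraries took the calls in this comparison from 1728 to 710, and the calls for Ccl19, Spp1, Arpp21, Tmc3 and Obp2a were lost. The call for Ly6d was lost without the members of either library.

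The number of calls depended on each library. Without the members of Z/Z 1 it was 1819 against other TECs, 2002 against fibroblasts and 367 against Epcam-positive Nos1 cells. Without those of Z/Z 2 it was 2745, 2768 and 852, where all members gave 4145, 4099 and 1728. The lone sum of members was then assumed to vary like the other classes.

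Members with and without Ano1 stood at similar levels of Ccl19 and Zeb2. In Z/Z 1 Ccl19 stood at 2721 CPM in the 293 members with Ano1 and 2746 in those without, and in Z/Z 2 at 1813 and 1464. Zeb2 stood at 1339 and 1378 CPM in Z/Z 1 and 1436 and 1488 in Z/Z 2. H2-Aa was lower with Ano1 than without in both libraries, at 322 and 515 CPM in Z/Z 1 and 352 and 479 in Z/Z 2, and Cd74 stood at 941 and 1661 CPM in Z/Z 1 and 1388 and 1371 in Z/Z 2. Prok2 differed in Z/Z 2, at 29.2 CPM with Ano1 and 157.8 without, and not in Z/Z 1, at 75.8 and 81.2. These values have no test, since Ano1 was used by the rule.

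Promoters of the epithelial identity genes were searched for CACCTG and its reverse complement CAGGTG, the E-box that Zeb proteins are known to bind. The motif was chosen after the level of Zeb2 was seen. RefSeq promoters (GRCm38.p6, 250 bases before to 50 after each start) matched 15 of the 24 epithelial genes, and 11 of these (73.3%) held a match. A match at any listed start was found for 6098 of the 27025 genes with a promoter (22.6%) and for 2 of 10 matched mesenchymal genes (20.0%). The 11 epithelial genes with a match included Dsp and Ocln, which lay between TECs and fibroblasts in level. A match is a description and not a site of binding, and whether Zeb2 acts on these genes was not tested. Epcam, the gene absent by selection, and the epithelial genes with the most matches, the polarity gene Crb3 and the sorting adaptor Ap1m2, are shown 5′ to 3′ on the strand of the gene, with matches in capitals. Epcam lies on the plus strand at chr17:87635729-87636028, Crb3 on the plus strand at chr17:57061951-57062250 and Ap1m2 on the minus strand at chr9:21312284-21312583.
Epcam: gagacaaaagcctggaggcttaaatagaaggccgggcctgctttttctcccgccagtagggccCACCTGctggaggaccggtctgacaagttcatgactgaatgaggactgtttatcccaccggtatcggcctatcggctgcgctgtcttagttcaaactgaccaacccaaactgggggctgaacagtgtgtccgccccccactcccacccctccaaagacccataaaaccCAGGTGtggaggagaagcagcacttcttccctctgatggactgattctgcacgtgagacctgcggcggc
Crb3: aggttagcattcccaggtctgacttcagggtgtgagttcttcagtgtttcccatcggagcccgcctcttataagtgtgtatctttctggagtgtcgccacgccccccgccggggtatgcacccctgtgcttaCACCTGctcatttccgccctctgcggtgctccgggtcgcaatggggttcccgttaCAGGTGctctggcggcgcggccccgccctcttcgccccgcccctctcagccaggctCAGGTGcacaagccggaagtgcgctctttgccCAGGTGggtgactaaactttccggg
Ap1m2: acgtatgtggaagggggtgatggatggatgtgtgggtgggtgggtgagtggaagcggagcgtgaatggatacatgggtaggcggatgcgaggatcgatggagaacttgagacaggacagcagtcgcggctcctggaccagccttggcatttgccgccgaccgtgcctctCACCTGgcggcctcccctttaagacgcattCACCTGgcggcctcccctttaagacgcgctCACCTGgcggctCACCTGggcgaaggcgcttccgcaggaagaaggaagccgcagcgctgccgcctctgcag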

How the data were processed

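CD45-depleted thymic stroma of 6-month-old mice was profiled in 4 libraries. Per the labels, UMI counts per gene and cell were deposited by the authors as filtered matrices; Cell Ranger 7.01 (7.0.1 in the matrix headers) and mm10 come from the submitters' processing notes. The sex differs between fields of the labels, and the study's methods also name another kit version than the labels. The members and lists were chosen with earlier results of these data known.

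Counts were read with Python 3.11.15 and scanpy 1.11.5, and 99 ribosomal-protein and haemoglobin features of 32285 were left out of sums. Other Epcam-positive TECs held at least 2 Epcam UMIs, at least 1 of Pax1 or Pax9 and 0 of Nos1, Slc26a7 and Ano1, fibroblasts at least 2 Pdgfra UMIs and endothelial cells at least 2 Pecam1 UMIs. Doublets were not removed in the main analysis, and cells in the top 3.9% of doublet scores were removed as an alternative. UMI sums per library and class were tested in R 4.3.3 with edgeR 4.0.16 (TMM, filterByExpr, library as a block, Benjamini-Hochberg adjustment over all genes, two-sided). The fit was tested on simulated data. DESeq2 1.42.0, RLE factors, thinning to 3000 UMIs, other thresholds and each library left out were tried as alternatives. Genes of the selection rule were left out of counts of calls. Members of WT and Z/Z could not be compared by a test, since WT held 5.

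Named genes were those past an adjusted p of 0.05 in the same direction in both libraries, with a mean of at least 50 CPM in the higher class and a symbol that is not of the form Gm plus a number or ending in Rik, taken by fitted difference (12 higher and 8 lower against TECs, 4 and 4 in the other comparisons), plus genes of the lists. Some genes that this rule names are not reported here. Gene coordinates are from GENCODE on GRCm38.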

Additional observations from a re-analysis of the deposited data

How the results depend on the processing

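The difference in share kept its direction under every alternative tried, from 3.79 to 7.82 percentage points of retained cells and from 22.7 to 32.1 of gated epithelial cells with 1 library left out. With the replicate number as a block the differences were 5.80 and 27.4, with an exact sign-flip p = 0.5, the smallest 2 pairs allow; the numbers name libraries and nothing says that they pair them. Calls against other TECs numbered 4145 and ranged from 1819 to 2745 with 1 library's members left out, and against fibroblasts 4099 and from 2002 to 2768. Against Epcam-positive Nos1 cells they numbered 1728 and ranged from 367 to 852, with 2612 without a filter on low counts, 454 with cells thinned to 3000 UMIs (fewer genes tested), 1078 with at least 3 UMIs of Nos1, Slc26a7 and Ano1, and 710 with shared barcodes removed. The cause of the last 2 was not tested. DESeq2 called 3466 genes against other TECs, 3389 against fibroblasts and 1560 against Epcam-positive Nos1 cells. Of 5412 values of named genes under alternatives, 5001 were counted as unchanged. These include values that passed in neither fit, whatever their direction. The call was lost in 306 values and gained in 96, with the direction kept, and 9 reversed with a call in at least 1 of the fits. After the data were seen, the members were pooled with Epcam-positive Nos1 cells. The log2 difference of Aqp5 from TECs then became 0.35, and those from fibroblasts became 2.15 for Cldn3, 0.82 for Ccl25, 5.20 for Aire, 2.24 for Cd80, 1.33 for Cd40 and 4.09 for Ptprz1, where Epcam-positive cells add their own UMIs by construction. With thinned cells the differences of Ccl25 and Met from Epcam-positive Nos1 cells became 0.81 and 0.092. Depth limits the low genes: those at 0 UMIs in the members have bounds only.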

Other observations

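The 5 members of WT 1 held 41263 UMIs in the sums and give values without a test. Zeb2 had 68 UMIs in them (1648 CPM), Ccl19 54 (1309 CPM), Tagln 43 (1042 CPM), Gucy1a1 19 (460.5 CPM) and Prkg1 60 (1454 CPM). Isl1 and Eya1 had 8 UMIs each. Cd74 had 11 UMIs and H2-Aa 2 (48.5 CPM, where the Z/Z members held 359 and 409). Foxn1 and Cdh1 had 0 UMIs, and Krt8 and Krt18 had 1 each. With 5 cells in 1 library these levels cannot be compared with those of the Z/Z members.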
